A study of Homo sapiens with 9 samples.

Results

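The genes of the core microRNA and RNA interference machinery were followed in DU145 prostate cancer cells that carried a short hairpin RNA (shRNA) against *FZD6* or a scrambled control: the Argonautes *AGO1*, *AGO2*, *AGO3* and *AGO4*, the scaffolds *TNRC6A*, *TNRC6B* and *TNRC6C*, and the processing genes *DROSHA*, *DGCR8* and *DICER1*. They were 10 of the 27902 genes with a value in the files. The genes were chosen by function, as the machinery of microRNA processing and silencing, part of which the hairpins use, and because *TNRC6A* differed between the hairpins. That difference is therefore given as values without a test. The level of a gene is the sum of its RefSeq transcripts in FPKM, a unit scaled for transcript length and library size. Levels are set side by side between genes on that scale, as an approximation.

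In the nucleus, DROSHA and its partner DGCR8 cut microRNA hairpins out of longer primary transcripts. In the cytoplasm, DICER1 removes the loop, and 1 strand of the resulting duplex is loaded into an Argonaute protein as its guide. Bases 2 to 8 of the guide, the seed, select targets, AGO2 can cleave a fully paired one, and the TNRC6 proteins join Argonaute to the enzymes that shorten the poly(A) tail and remove the cap. A vector-borne shRNA resembles a microRNA precursor, which skips the DROSHA step and uses DICER1 and the Argonautes.

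DU145 is an established human prostate cancer line. The libraries fell into 3 groups of 3: cells with a scrambled shRNA (scramble), with shRNA *FZD6* #1 (shRNA1) and with shRNA *FZD6* #2 (shRNA2). The genotype label of each group was WT, the study's constitutive hairpin vector was pLKO.1, and no time after infection is given in the sources used here. The control thus carried a hairpin too, and no library came from cells without one. Nothing states whether the 3 libraries of a group came from separate cultures, so p-values measure the spread between these libraries, which may be technical. Comparisons called pooled set the 6 libraries of both *FZD6* hairpins, taken as 1 group, against the 3 scramble libraries. Their p-values count libraries, not hairpins, so they do not extend to other hairpins.

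Estimated depth was 32.2 to 40.3 M fragments per library, and the 10 genes rested on an estimated 230 to 7192 fragments each. Of 4 epithelial markers, *KRT8* was at 202 to 238 FPKM and *KRT18* at 260 to 296. *EPCAM* had means of 17.6, 20.4 and 22.4 FPKM in scramble, shRNA1 and shRNA2, and *CDH1* of 4.68, 3.91 and 3.45. Of 7 markers of other cell types, *PTPRC* and *CD3E* were at 0 in each library, *PECAM1* and *CHGA* at most at 0.0213 and 0.0833 FPKM, *COL1A1* at 0.294 to 0.455 and *ACTA2* at 0.413 to 0.863, and *SYP* had means of 0.401, 0.422 and 0.646. The part of these marker levels in the results was not tested. *FZD6*, the targeted Frizzled receptor gene, was at 20.04 to 20.9 FPKM in the scramble libraries, 9.47 to 10.2 with shRNA1 and 7.69 to 8.79 with shRNA2. It fell in both groups (log2 fold changes −0.99 and −1.24, limma with Benjamini-Hochberg adjusted p = 0.00033 and 4.51e-05). Without shRNA2 replicate 2, the library farthest from its group for *DICER1*, 3255 of 12509 genes passed in the pooled comparison in place of 2578, and values without it are given where a call rests on it. Fold changes are differences of log2(FPKM + 1), which understates the change of genes with low levels. In bulk RNA, fewer cells that express a gene and less RNA per cell cannot be told apart.

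**Figure D1:**
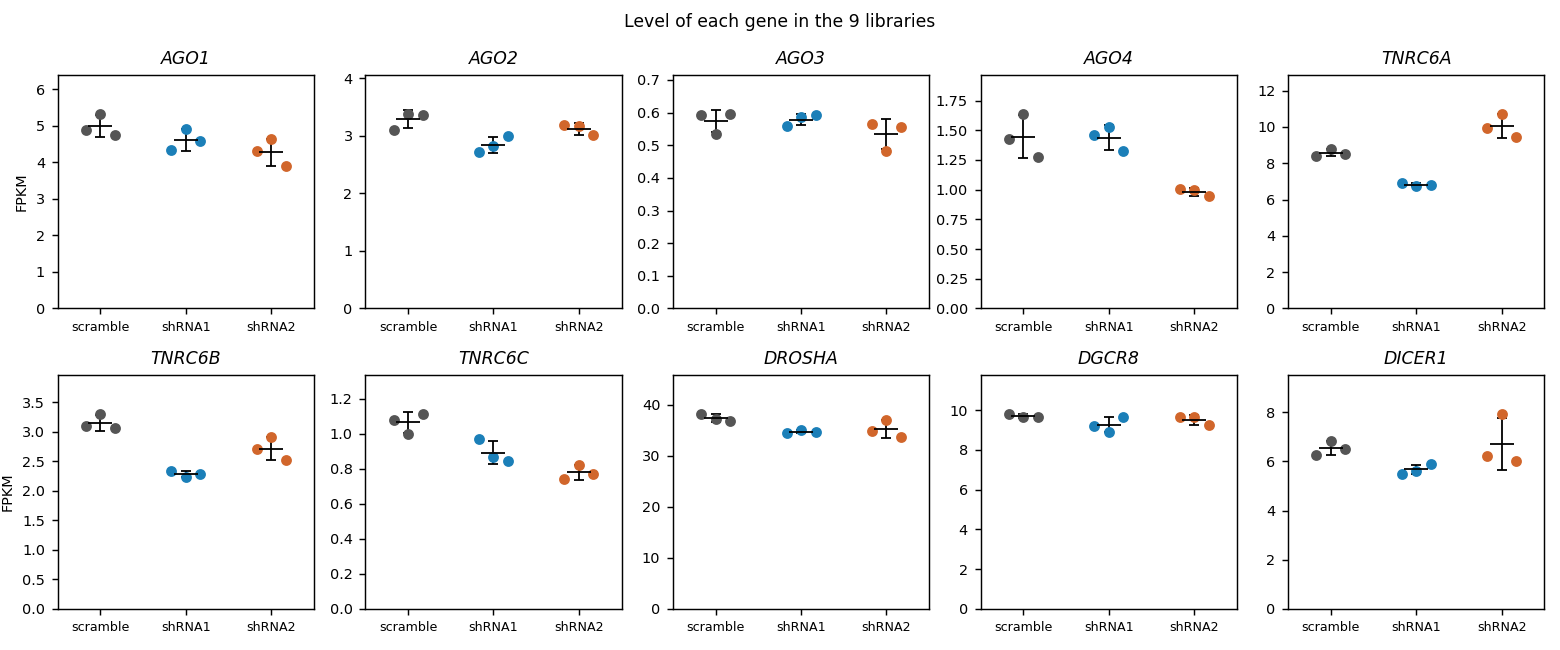
Level of each of the 10 genes in FPKM (vertical axes, each starting at 0) in the 9 libraries; points are libraries, and black bars are the group mean ± SD (n = 3). *TNRC6A* is below the scramble libraries with shRNA1 and above them with shRNA2, while *TNRC6B* is below them with either hairpin and *AGO4* with shRNA2.

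*DROSHA* was the highest of the 10 genes, at 37.4 ± 0.73 FPKM in the scramble libraries (mean ± SD, n = 3). *DGCR8*, at 9.71 ± 0.091, and *TNRC6A*, at 8.57 ± 0.19, followed, and their libraries did not overlap. *DICER1* came next at 6.54 ± 0.28 FPKM and *AGO1* at 4.99 ± 0.31. *AGO2* at 3.29 ± 0.15 and *TNRC6B* at 3.15 ± 0.13 overlapped in their libraries, as neighbours in this order that did not differ beyond their spread. *AGO4* was at 1.45 ± 0.18 FPKM, *TNRC6C* at 1.06 ± 0.059 and *AGO3* at 0.574 ± 0.035. *TNRC6C* and *AGO3* had means under 1 FPKM over the 9 libraries and were left out of the main test, which covered 12509 genes and 8 of the 10.

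The scaffold gene *TNRC6A* (chr16:24610205-24826218, hg38) was at 8.41, 8.79 and 8.52 FPKM in the scramble libraries. With shRNA1 it was at 6.93, 6.74 and 6.81 FPKM. With shRNA2 it was at 9.94, 10.7 and 9.45 FPKM. The 3 groups did not overlap: each shRNA1 library was below and each shRNA2 library above the control libraries. The group means in FPKM differed from scramble by −20.3% with shRNA1 and by 17.2% with shRNA2. On log2(FPKM + 1), the scale of the fold changes, the differences were −0.29 and 0.20. Between the hairpins the log2 difference was 0.49, or 0.48 after the trend with transcript length was taken out of each library (described further on). This order of the groups, with all shRNA1 libraries below and all shRNA2 libraries above the scramble libraries, was found in 51 of 12509 tested genes (0.408%). Genes in the reverse order are not counted in that share. *TNRC6A* was chosen for its difference between the hairpins, so the share is no test of it. Between the hairpins, 6.71% of tested genes were called in either direction. With both hairpins pooled against scramble, a comparison that averages over their difference, the log2 fold change of *TNRC6A* was −0.04 (95% confidence interval −0.38 to 0.30, limma adjusted p = 0.865). A single transcript, NM_001330520, carried at least 91.3% of the *TNRC6A* level in each library.

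*TNRC6B* (chr22:40044834-40335808), a paralog of *TNRC6A* with the same scaffold role, was at 3.09, 3.30 and 3.06 FPKM in the scramble libraries. With shRNA1 it was at 2.34, 2.23 and 2.28 FPKM, and with shRNA2 at 2.71, 2.91 and 2.52 FPKM. Both hairpin groups lay below the control libraries without overlap, and the shRNA1 libraries lay below those of shRNA2. With the hairpins pooled, the mean FPKM of *TNRC6B* was 20.7% lower, and on log2(FPKM + 1) the fold change was −0.25 ± 0.063 SE (limma adjusted p = 0.0265). It fell with shRNA1 (log2 fold change −0.34, limma adjusted p = 0.00484) and with shRNA2 (−0.16, limma adjusted p = 0.0303). The pooled call was lost without any 1 of the scramble libraries, with adjusted p of 0.0771 without replicate 1, 0.108 without replicate 2 and 0.0633 without replicate 3. The shRNA2 call was lost without scramble replicate 1, 2 or 3 (limma adjusted p = 0.0643, 0.0952 and 0.0517), without shRNA1 replicate 3 (0.0513) and without shRNA2 replicate 1 or 3 (0.0673 and 0.0725), whereas the shRNA1 call was kept whichever library was left out. All 3 calls were lost with the length trend removed, and the values were then −0.05 pooled, −0.12 with shRNA1 and 0.02 with shRNA2 (limma adjusted p = 0.546, 0.0668 and 0.736).

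*TNRC6C*, the third member of the family, was at 1.08, 0.999 and 1.11 FPKM in the scramble libraries. It was at 0.968, 0.867 and 0.841 FPKM with shRNA1 and at 0.743, 0.824 and 0.769 FPKM with shRNA2. The 6 hairpin libraries lay below the 3 control libraries. Tested without a filter on low values, where 10.9% of 21356 genes passed, *TNRC6C* had a log2 fold change of −0.17 (limma adjusted p = 0.0284). The value was −0.13 with shRNA1 (limma adjusted p = 0.0595) and −0.21 with shRNA2 (limma adjusted p = 0.00755).

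To place these differences beside the sequence of the hairpins, the transcripts were searched for the 7 bases that pair with bases 2 to 8 of each guide, taken from the 3′ arm of the listed hairpin with its first base as base 1. The word is GTATTAT for shRNA1, AATTATA for shRNA2 and CGCCCTC for the scrambled hairpin, and only the transcript strand was searched. In 1 GENCODE transcript per gene, the one paired with its most abundant RefSeq transcript, the shRNA1 word was in 14.5% of 12092 tested genes and in 45.0% of the 591 transcripts of 8000 bases or longer. The shRNA2 word was in 19.3% and 56.5% of them, and the scramble word in 17.6% and 28.6%. The shRNA1 word was found in *TNRC6A* 1 time, *TNRC6B* 2 times, *DICER1* 1 time, *AGO2* 3 times and *AGO3* 5 times. The shRNA2 word was found in *TNRC6B* 2 times, *DICER1* 4 times, *DROSHA* 1 time, *AGO2* 3 times and *AGO3* 7 times, and not in *TNRC6A*. The scramble word was found 1 time each in *AGO2*, *TNRC6B* and *DGCR8*. *AGO1*, *AGO4* and *TNRC6C* held none of the 3 words. Libraries of shRNA1 and shRNA2 did not overlap for *TNRC6A*, *TNRC6B*, *AGO2* and *DICER1*, higher with shRNA2, or for *AGO4* and *TNRC6C*, lower with it. The share of all tested genes without such overlap is not given here, and *TNRC6A* was chosen by this contrast. This listing is therefore a description of the libraries and no result about these genes or the words. Of the matches, only those in *TNRC6A* and *TNRC6B* are shown, 5′ to 3′ with the 7-base word in capitals. Those of the *FZD6* hairpin words lie in the 3′ UTR, in the last exon (exon 24 of 24 in *TNRC6A* and 21 of 21 in *TNRC6B*), and that of the scramble word lies in the coding sequence, in exon 13 of 21. All are on the plus strand, and positions of the word are on GRCh38.
TNRC6A, shRNA1 word, chr16:24825219-24825225: acaaatgGTATTATaatgctt
TNRC6B, shRNA1 word, chr22:40331592-40331598: ttgaaatGTATTATtatgcaa
TNRC6B, shRNA1 word, chr22:40335707-40335713: tatgattGTATTATgtgcaac
TNRC6B, shRNA2 word, chr22:40324996-40325002: tgaagagAATTATAgcagacc
TNRC6B, shRNA2 word, chr22:40330133-40330139: aattcccAATTATAattgacc
TNRC6B, scramble word, chr22:40301220-40301226: aagcactCGCCCTCtcatcct
These matches describe letters in the annotated transcripts. Whether the matches bear on the level of any gene was not tested, nor was binding at them.

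**Figure D2:**
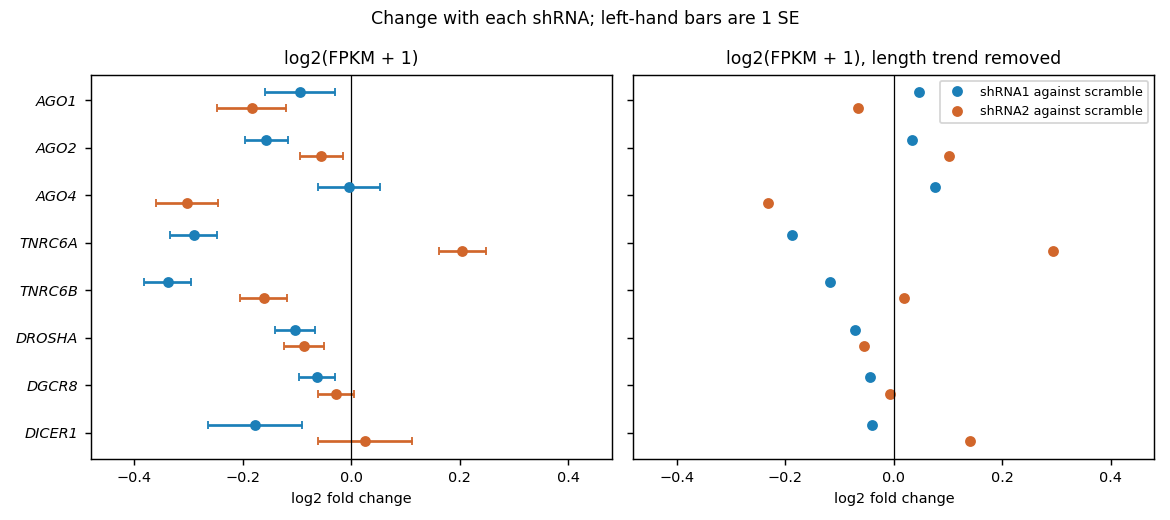
Log2 fold change of the 8 tested genes (horizontal axes) with shRNA1 (blue) and shRNA2 (orange) against scramble, as log2(FPKM + 1) with bars of 1 SE on the left and with each library's length trend removed on the right. *TNRC6A* keeps its place on either side of 0 in both panels, *AGO4* with shRNA2 stays at −0.30 and −0.23, and *TNRC6B* moves from −0.34 and −0.16 to −0.12 and 0.02.

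Among the Argonautes, *AGO2*, the one with slicing activity, was at 3.11, 3.39 and 3.37 FPKM in the scramble libraries. It was at 2.72, 2.83 and 2.99 FPKM with shRNA1, below each control library, and at 3.19, 3.18 and 3.01 FPKM with shRNA2, which overlapped them. *AGO2* fell with shRNA1 (log2 fold change −0.16, limma adjusted p = 0.033), a call lost without scramble replicate 2 or 3 (limma adjusted p = 0.104 and 0.0927) and without shRNA1 replicate 1 or 2 (0.0984 and 0.0945). With shRNA2 its value was −0.06 (95% confidence interval −0.15 to 0.04, limma adjusted p = 0.339), and the difference between the hairpins was not tested.

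*AGO4*, *AGO1* and *AGO3* lie side by side on chromosome 1 (35807636 to 35857890, 35869761 to 35930532 and 35930718 to 36072500, hg38). *AGO4* was at 1.43, 1.64 and 1.27 FPKM in the scramble libraries and at 1.46, 1.53 and 1.32 FPKM with shRNA1, which overlapped. With shRNA2 it was at 1.00, 0.994 and 0.944 FPKM, below the other 6 libraries. *AGO4* fell by 32.2% with shRNA2 (log2 fold change −0.30, limma adjusted p = 0.00873). The call was kept in the 20 of 20 alternatives that gave *AGO4* an adjusted p. *AGO4* dropped out of the test with protein-coding accessions only and with the stricter filter on level. Its noncoding transcript NR_146062 carried 12.8% to 42.5% of its level. The coding transcript NM_017629 averaged 0.899 FPKM over all libraries, with means of 1.07 in scramble and 0.667 with shRNA2. The fold change of *AGO4* with shRNA2 was −0.55 with a pseudocount of 0.01 in place of 1. With shRNA1 its log2 fold change was −0.0037 (95% confidence interval −0.14 to 0.13, limma adjusted p = 0.978).

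*AGO1* was at 4.88, 5.34 and 4.76 FPKM in the scramble libraries. With shRNA1 it was at 4.34, 4.92 and 4.58 FPKM, and with shRNA2 at 4.30, 4.63 and 3.90 FPKM, where each library was below the controls. Its log2 fold change with shRNA2 was −0.18 (95% confidence interval −0.33 to −0.03, limma adjusted p = 0.0696). Of 21 alternatives, 5 put it past the threshold. It passed without shRNA2 replicate 2 (−0.23, limma adjusted p = 0.0327), with median centring (limma adjusted p = 0.0486), with quantile normalization (0.0481), with replicates as a block (0.0204), and with protein-coding accessions only (0.0488). With the length trend removed it was −0.07 (limma adjusted p = 0.269). *AGO3* overlapped between the groups, at 0.534 to 0.597 FPKM in scramble, 0.559 to 0.592 with shRNA1 and 0.483 to 0.566 with shRNA2. Without a filter, its pooled log2 fold change was −0.02 (95% confidence interval −0.07 to 0.04, limma adjusted p = 0.785).

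*DROSHA*, the nuclear ribonuclease, was at 38.2, 37.2 and 36.8 FPKM in the scramble libraries, at 34.4, 35.1 and 34.7 FPKM with shRNA1 and at 34.9, 37.0 and 33.6 FPKM with shRNA2. The shRNA1 libraries lay below the controls, and shRNA2 replicate 2 lay within them. The pooled log2 fold change was −0.10 (95% confidence interval −0.17 to −0.02, limma adjusted p = 0.0677). Of 22 alternatives, 4 put it past the threshold: without shRNA2 replicate 2 (−0.11, limma adjusted p = 0.0138), with quantile normalization (−0.14, 0.0267), with median centring (0.0459) and in genes of at least 5 FPKM (0.0491).

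*DGCR8*, the RNA-binding partner of DROSHA, was at 9.65 to 9.81 FPKM in scramble, 8.89 to 9.66 with shRNA1 and 9.23 to 9.66 with shRNA2. Its groups overlapped, and the pooled log2 fold change was −0.05 (95% confidence interval −0.12 to 0.02, limma adjusted p = 0.327).

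*DICER1* was at 6.28, 6.83 and 6.52 FPKM in the scramble libraries, at 5.50, 5.62 and 5.89 FPKM with shRNA1 and at 6.22, 7.94 and 6.00 FPKM with shRNA2. The shRNA1 libraries lay below the controls, whereas shRNA2 replicate 2 was above all other libraries. The log2 fold change was −0.18 with shRNA1 (95% confidence interval −0.38 to 0.03, limma adjusted p = 0.194) and 0.03 with shRNA2 (limma adjusted p = 0.857). Without shRNA2 replicate 2, which is also left out of the shared estimate of the spread, these were −0.18 (limma adjusted p = 0.0165) and −0.08 (limma adjusted p = 0.16), and *DICER1* passed in the pooled comparison (−0.14, limma adjusted p = 0.0452). That library was singled out by its *DICER1* value, so these calls are no independent test of *DICER1*. Leaving it out also raised the number of genes called with shRNA1 from 2357 to 3538 of 12509.

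Counted together, 1 of the 8 tested genes passed in the pooled comparison, *TNRC6B*, against 20.6% of all tested genes in either direction and 7.10% lower. With shRNA1, 2 of 7 passed, *AGO2* and *TNRC6B*, where 18.8% of all tested genes did, and with shRNA2, 2 of 7, *AGO4* and *TNRC6B*, where 26.7% did. *TNRC6A* is not counted in these last comparisons. The share of all tested genes called lower was 7.19% with shRNA1 and 11.4% with shRNA2. Libraries lay wholly below the controls for 1 of 8 genes in the pooled comparison (9.46% of all tested genes), for 4 of 7 with shRNA1 (17.9%) and for 3 of 7 with shRNA2 (16.6%). In the pooled comparison the 8 log2 fold changes were below 0, with a median of −0.10, while the median over all tested genes was 0.03.

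These genes have long transcripts, and in these libraries changes depended on length. The transcript length of the 8 tested genes, as a mean of the annotated transcripts weighted by level, was 4511 bases for *DGCR8*, 5050 for *DROSHA*, 7116 for *AGO4*, 8305 for *TNRC6A*, 10292 for *DICER1*, 10561 for *AGO1*, 14580 for *AGO2* and 17749 for *TNRC6B* (approximate for *AGO1*, 2 of whose RefSeq transcripts pair with 1 GENCODE transcript). The median over the tested genes with a length was 2670 bases. The median pooled log2 fold change was −0.17 for the 238 tested genes with transcripts of at least 10000 bases, −0.14 for the 537 of at least 8000 bases and 0.07 for the 6853 under 3000 bases. After a lowess trend against length was taken out of each library, 12.4% of 12092 genes passed in the pooled comparison and 0 of the 8 did by limma (1, *DROSHA*, had an unadjusted p under 0.05). The median of the 8 was then −0.02, with 5 of them below 0. With shRNA1, where 11.9% of genes passed, *AGO2* moved to 0.03 (limma adjusted p = 0.718). *AGO4* still fell with shRNA2 (−0.23, limma adjusted p = 0.0177, with 23.7% of genes called).

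**Figure D3:**
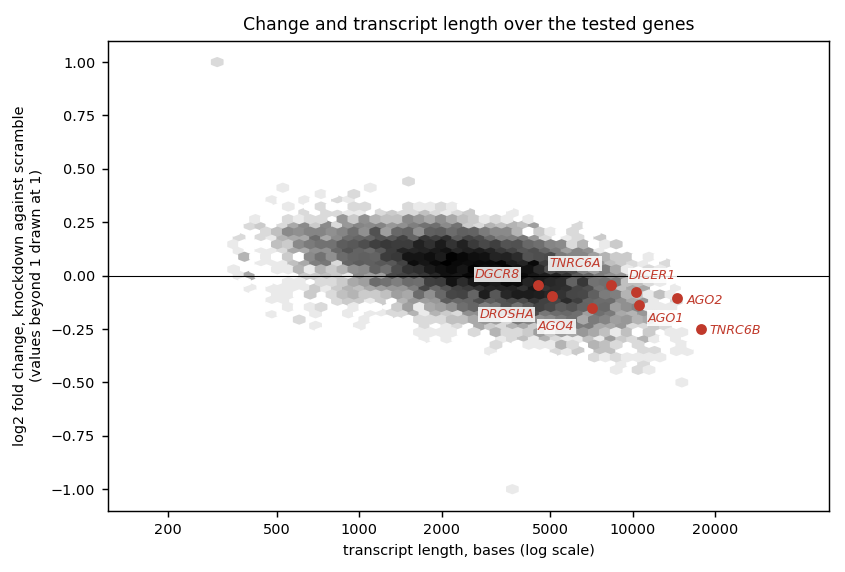
Pooled log2 fold change (vertical axis) against transcript length in bases (horizontal log axis) for the 12092 tested genes with a length; grey cells count genes, darker for more, and red points are the 8 tested genes of the machinery. The cloud slopes downward with length, and *TNRC6B*, the longest of the 8, lies at −0.25, beside a median of −0.17 for genes of at least 10000 bases.

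The single RefSeq transcripts were then compared, as Cufflinks divided the reads among them. Of 26 transcripts of the 10 genes, 12 had a mean of at least 1 FPKM, and 0 passed by limma (4 had an unadjusted p under 0.05), where 1.09% of 19780 transcripts passed. *AGO1* NM_012199 was at 1.38, 1.40 and 1.45 FPKM in the scramble libraries. It was at 0.960, 0.975 and 1.02 FPKM with shRNA1 and at 1.14, 0.845 and 1.07 FPKM with shRNA2, so each hairpin library was below the controls (log2 fold change −0.27, limma adjusted p = 0.0535). The share of all tested transcripts that lay wholly below the controls is not given here. Such a position, also that of *DROSHA* NM_001100412 below, is therefore a description only. The other *AGO1* transcripts varied within groups, and NM_001317123 ranged from 0.0579 to 2.23 FPKM among the scramble libraries.

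*DROSHA* was split between NM_001100412 and NM_013235. The first was at 16.6, 16.0 and 16.8 FPKM in scramble, at 15.0, 14.0 and 14.0 FPKM with shRNA1 and at 12.3, 15.4 and 11.6 FPKM with shRNA2, below the controls in each library (log2 fold change −0.25, limma adjusted p = 0.194). The second overlapped, at 20.0 to 21.6 FPKM in scramble and 19.4 to 22.6 in the hairpin libraries (log2 fold change 0.02, limma adjusted p = 0.909). *DICER1* was divided among NM_001291628, NM_177438 and NM_030621. The mean of NM_001291628 was 3.07 FPKM in scramble and 1.21 in the hairpin libraries (log2 fold change −0.94, limma adjusted p = 0.184), and that of NM_177438 was 1.85 and 3.30 FPKM (0.57, limma adjusted p = 0.332). The libraries of both overlapped between groups.

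**Figure D4:**
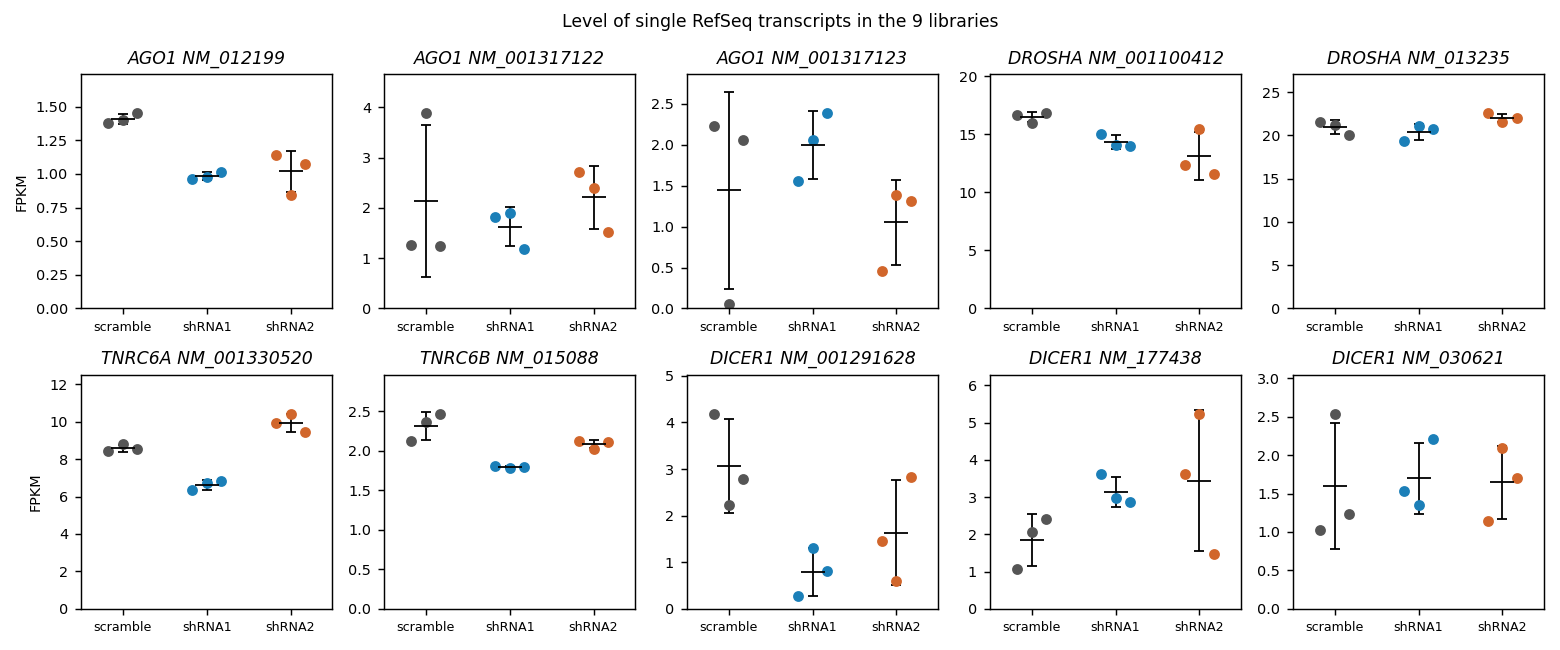
Level of 10 RefSeq transcripts of *AGO1*, *DROSHA*, *TNRC6A*, *TNRC6B* and *DICER1* in FPKM (vertical axes, each starting at 0) in the 9 libraries; points are libraries and black bars the group mean ± SD (n = 3). *AGO1* NM_012199 and *DROSHA* NM_001100412 lie below the scramble libraries in all 6 hairpin libraries, though neither passed by limma, and the *DICER1* transcripts spread widely within groups.

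The wider pathway was examined in 110 other genes on 5 lists, of which 95 were tested. In the pooled comparison 7 fell and 21 rose (29.5% of the 95, beside 20.6% of all tested genes), with a median log2 fold change of −0.01. This split depended on scaling: with quantile normalization, where 16.8% of all genes passed, 15 fell and 8 rose. Of all 12509 tested genes, 888 fell (7.10%) and 1690 rose in the pooled comparison, so 65.6% of called genes were higher. These shares are the background of each list below. The named genes kept their sign with median centring, quantile normalization and the length trend removed. They were chosen by the pooled comparison, so a gene called with a single hairpin can be missing. By hairpin, 9 of the 95 fell and 13 rose with shRNA1 (23.2%, beside 18.8% of all tested genes). With shRNA2, 17 fell and 20 rose (38.9%, beside 26.7%).

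Of the genes for nuclear processing and export, 0 of 18 fell by limma (4 were lower at an unadjusted p under 0.05) and 7 rose. Called genes were 38.9%, and the median was 0.05. By hairpin, 1 fell and 5 rose with shRNA1, and 3 fell and 8 rose with shRNA2. *XPO5* was at −0.15 with shRNA2 (limma adjusted p = 0.0337) and at 0.02 with shRNA1 (limma adjusted p = 0.743). *RAN*, the GTPase that drives nuclear export, rose from 165 to 168 FPKM in scramble to 188 to 199 in the hairpin libraries (log2 fold change 0.19, limma adjusted p = 0.00266). *SRSF3*, a splicing factor that also aids the DROSHA cut, rose from 70.0 to 74.3 FPKM to 80.7 to 86.7 (0.22, limma adjusted p = 0.00346), whereas its value was 0.09 with protein-coding accessions only (limma adjusted p = 0.103) and 0.14 with the length trend removed (limma adjusted p = 0.0357). *ILF2*, a nuclear factor of RNA metabolism, rose from 286 to 290 FPKM to 317 to 352 (0.20, limma adjusted p = 0.00829), or 0.13 with quantile normalization (limma adjusted p = 0.0435). The *ILF2* call was lost with the replicate block and the length trend removed together (0.14, limma adjusted p = 0.0856).

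Among the Dicer partners and the genes of Argonaute loading and binding, 1 of 19 fell and 5 rose (31.6% called, median 0.05). Counts by hairpin were 2 lower and 2 higher with shRNA1, and 2 lower and 5 higher with shRNA2. *AJUBA* was at −0.34 with shRNA2 (limma adjusted p = 0.000833) and at 0.01 with shRNA1 (limma adjusted p = 0.795). *MOV10*, an RNA helicase that binds Argonaute, fell from 10.3 to 11.0 FPKM to 8.87 to 9.72 (log2 fold change −0.16, limma adjusted p = 0.0166), a call lost without scramble replicate 1 or 2 (limma adjusted p = 0.0514 and 0.0766). The chaperone *HSPA8*, which takes part in Argonaute loading, rose by 0.17 (limma adjusted p = 0.033), whereas its value was 0.02 with quantile normalization (limma adjusted p = 0.757) and 0.14 with the length trend removed (limma adjusted p = 0.0957). *TARBP2*, the double-stranded RNA binding partner of DICER1, rose by 0.17 (limma adjusted p = 0.0397) and the co-chaperone *FKBP4* by 0.13 (limma adjusted p = 0.0325). By hairpin, *TARBP2* did not pass with shRNA2 (limma adjusted p = 0.095), nor did *FKBP4* with shRNA1 (limma adjusted p = 0.0694). The calls of *TARBP2* and *FKBP4* were lost with centring, with quantile normalization and with the length trend removed. Left-out libraries also ended these calls: that of *HSPA8* without any 1 scramble library or shRNA2 replicate 1 or 3 (limma adjusted p = 0.0519 to 0.109), that of *TARBP2* without scramble replicate 2 or 3, any 1 shRNA1 library or shRNA2 replicate 1 or 3 (0.0583 to 0.157), and that of *FKBP4* without any 1 scramble library, shRNA1 replicate 3 or shRNA2 replicate 1 or 3 (0.0503 to 0.123).

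Of the silencing effectors, which shorten tails, remove caps or hold back translation, 1 of 27 fell and 8 rose (33.3% called, median −0.02). Counts by hairpin were 2 lower and 3 higher with shRNA1, and 4 lower and 6 higher with shRNA2. *DCP1A* was at −0.36 with shRNA2 (limma adjusted p = 0.00148) and at −0.06 with shRNA1 (limma adjusted p = 0.339). *PATL1* was at −0.26 (limma adjusted p = 0.000961) and −0.05 (limma adjusted p = 0.203). *GIGYF2*, which with its partner EIF4E2 represses translation, fell from 10.9 to 11.4 FPKM to 8.59 to 10.1 (log2 fold change −0.27, limma adjusted p = 0.00643). *EIF4E2*, a cap-binding protein, rose from 35.9 to 39.1 FPKM to 41.5 to 48.3 (0.26, limma adjusted p = 0.0123), and with the length trend removed its value was 0.19 (limma adjusted p = 0.0551). *CNOT10*, a subunit of the CCR4-NOT deadenylase, rose by 0.18 (limma adjusted p = 0.00927), and the decapping cofactor *DCP1B* by 0.16 (limma adjusted p = 0.0237), or 0.11 with the length trend removed (limma adjusted p = 0.0912). The *EIF4E2* call was lost without scramble replicate 2 or 3 (limma adjusted p = 0.0528 and 0.0515) and the *DCP1B* call without scramble replicate 1 or 3 (0.0843 and 0.0917). By hairpin, *DCP1B* did not pass with shRNA1 (limma adjusted p = 0.0563).

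Of the genes of microRNA and Argonaute turnover, 1 of 15 fell and 0 rose by limma in the pooled comparison (6.67% called). At an unadjusted p under 0.05, 4 were higher, and the median was 0.02. By hairpin, 1 fell and 2 rose with shRNA1, and 2 fell and 0 rose with shRNA2. *PPP6C* was at −0.40 with shRNA2 (limma adjusted p = 0.000564) and at 0.07 with shRNA1 (limma adjusted p = 0.175). *ZSWIM8*, the receptor of the ubiquitin ligase that acts in target-directed microRNA decay, fell from 7.31 to 7.66 FPKM to 6.02 to 6.57 (log2 fold change −0.21, limma adjusted p = 0.00497).

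Of the transcripts that host microRNAs in their introns or exons, 4 of 16 fell and 1 rose (31.25% called, median −0.04). Counts by hairpin were 3 lower and 1 higher with shRNA1, and 6 lower and 1 higher with shRNA2. *HUWE1*, a ubiquitin ligase gene, fell from 27.1 to 30.6 FPKM to 18.2 to 23.0 (log2 fold change −0.52, limma adjusted p = 0.00332). The phosphatase genes *CTDSP2* and *CTDSPL* fell by 0.30 (limma adjusted p = 0.00594) and 0.19 (limma adjusted p = 0.0375) on the log2 scale, and with the length trend removed *CTDSPL* was at −0.17 (limma adjusted p = 0.0521). Its call was also lost without any 1 scramble library, shRNA1 replicate 1 or shRNA2 replicate 1 or 3 (limma adjusted p = 0.0528 to 0.148). By hairpin, *CTDSPL* did not pass with shRNA1 (limma adjusted p = 0.0907). The value of *HUWE1* was −0.35 with the length trend removed (limma adjusted p = 0.00318). *MCM7*, a subunit of the replicative helicase, rose from 119 to 120 FPKM to 133 to 142 (0.20, limma adjusted p = 0.0028). The microRNAs themselves were not measured in these mRNA libraries.

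**Figure D5:**
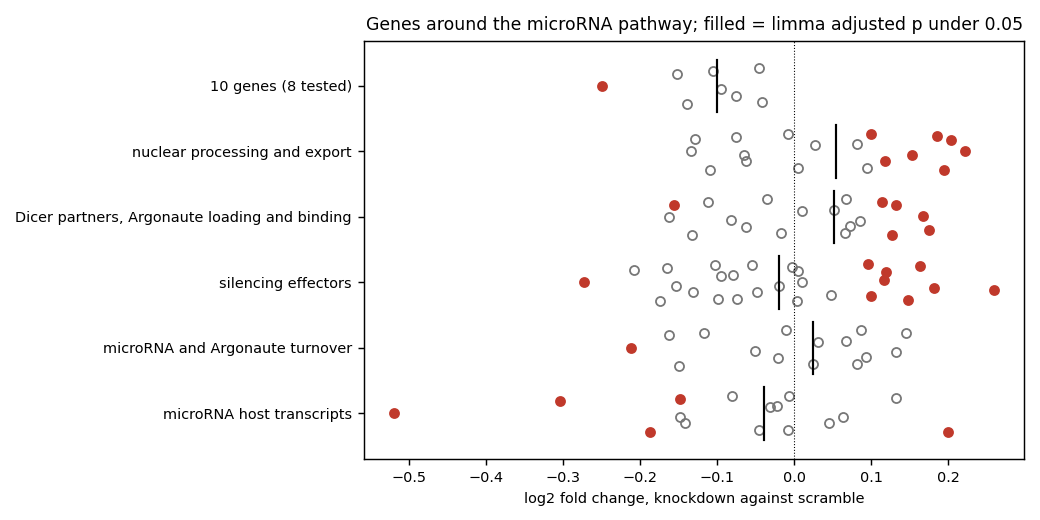
Pooled log2 fold change (horizontal axis) of each tested gene in the machinery and on the 5 lists (rows); filled points passed limma with Benjamini-Hochberg adjusted p under 0.05, open points did not, and black lines are medians. The machinery has a median of −0.10, and the lists lie between −0.04 and 0.05.

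Over the 9 libraries, the tested genes whose log2 levels followed *TNRC6A* most closely were *FERMT2* (Pearson r = 0.99), *ELOVL2* (0.977), *GPAT3* (0.976), *CPM* (0.974) and *CHST10* (0.963). These genes were picked for this likeness among all tested genes, and the points share their libraries and groups. *FERMT2*, which encodes an adaptor of integrins, had mean levels of 45.9, 37.7 and 51.7 FPKM in scramble, shRNA1 and shRNA2. *ELOVL2*, a fatty acid elongase gene, had mean levels of 9.32, 6.85 and 10.4 FPKM. Both were lowest with shRNA1 and highest with shRNA2, as *TNRC6A* was.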

How the data were processed

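RNA of 9 DU145 libraries was sequenced from stranded poly(A)-selected cDNA. Per the labels and the study's methods, the authors aligned reads with STAR and deposited FPKM from Cufflinks per RefSeq transcript, with confidence bounds; their processing notes name hg38, to which the transcript positions belong, whereas the methods name mm10. Versions are not given in the sources used here. FPKM hold no counts, so depth was estimated from the bounds.

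Transcripts were aligned between files by accession and position, named from RefSeq (72645 of 73240 accessions matched) and summed per gene. limma 3.58.1 (R 4.3.3) was run on log2(FPKM + 1) for genes averaging 1 FPKM or more, with 2 groups for the pooled comparison and 3 for each hairpin, two-sided, with Benjamini-Hochberg adjustment over all tested genes and a threshold of 0.05. It was tested on simulated data. Lengths and sequences came from GENCODE v29 (length found for 96.7% of tested genes), and length trends from lowess (span 0.3). Named list genes were up to 3 called each way with the largest change; for likeness, the 5 genes with the highest r. Replicate numbers did not pair the libraries: same-numbered deviations correlated at −0.071 to 0.111. Members and lists were chosen with earlier results of these data known. Python 3.11.15, pandas 2.3.3 and matplotlib 3.10.9 were used. Some marker genes are not reported here.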

Additional observations from a re-analysis of the deposited data

Results flagged for a closer look

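With 3 groups of 3 libraries, the spread within a group was examined over the 6 hairpin libraries, for the 10 genes and *FZD6*; a gap this wide arises by chance in about 1 in 20 such groups. The lowest of the 6 values of *AGO3*, 0.483 FPKM, and the highest of *DICER1*, 7.94 FPKM, stood apart from the nearest other library by more than Dixon's limit, and both came from shRNA2 replicate 2. Their gaps were 0.657 and 0.703 of the range of the 6 values. The next widest gap, 0.569, was that of the highest *DROSHA* value, 37.0 FPKM, from the same library. The 6 libraries mix both hairpins, and those of *DICER1* did not overlap between them. *TNRC6A* differed between the hairpins by 0.49 on the log2 scale, with each shRNA1 library below and each shRNA2 library above the scramble libraries; this difference was not tested, because it was used to choose the genes.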

How the results depend on the processing

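Of the 8 tested genes, 1 passed in the pooled comparison. The number was 2 of 10 with no filter (*TNRC6B* and *TNRC6C*), 2 of 8 with centring and with quantile normalization (*DROSHA* and *TNRC6B*), 0 with the length trend removed and by the study's criteria (unadjusted p under 0.01 and 1.2-fold), and 0 to 3 when 1 library was left out, with 0 without any 1 of the scramble libraries and 3 without shRNA2 replicate 2. With shRNA1, 2 of 7 passed, and the number was 3 with quantile normalization (*DROSHA* added), 0 in genes of at least 5 FPKM (which leaves out *AGO2* and *TNRC6B*) and with the length trend removed, 1 by the study's criteria, 4 with the 6 compared libraries alone and 1 to 4 with 1 library left out. With shRNA2, 2 of 7 passed, and the number was 3 with no filter (*AGO4*, *TNRC6B* and *TNRC6C*) and with centring, with quantile normalization and with the replicate block (*AGO1*, *AGO4* and *TNRC6B*), 0 in genes of at least 5 FPKM, 1 with the length trend removed, by the study's criteria and with the 6 compared libraries alone, and 1 to 4 with 1 library left out. Over all 12509 tested genes the counts moved as well. With shRNA1, 2357 passed in the main setting, 1881 with quantile normalization, 439 by the study's criteria and 3409 with the 6 compared libraries alone. The range was 917 to 3538 with 1 library left out. For shRNA2 these counts were 3335, 3133, 729, 2117 and 2097 to 4195. The cause was not tested where the setting does not itself remove genes or libraries. The *TNRC6A* difference between the hairpins was 0.55 with a pseudocount of 0.1 or 0.01 and 0.45 to 0.53 with 1 library left out.

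Signs turned with the length trend removed for *AGO2* (pooled 0.0672, shRNA1 0.0337, shRNA2 0.101), *TNRC6A* (pooled 0.0525), *DICER1* (pooled 0.0501), *AGO1* (shRNA1 0.0463), *AGO4* (shRNA1 0.0753) and *TNRC6B* (shRNA2 0.018); of these, *AGO2* with shRNA1 and *TNRC6B* with shRNA2 had been called. *AGO4* with shRNA1 was 0.0041 with quantile normalization and −0.0551 to 0.0528 with 1 library left out, pooled *TNRC6A* −0.11 to 0.0101 and *DICER1* with shRNA2 −0.0841 to 0.0916.

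Of the 95 list genes, 7 fell and 21 rose. The numbers were 15 and 8 with quantile normalization, 11 rose with the length trend removed, 3 fell and 0 rose by the study's criteria, 15 fell in a model with 3 groups, and with 1 library left out 4 to 17 fell and 6 to 22 rose. Of the 12 transcripts, 0 to 1 passed with 1 library left out. Over all genes, higher genes were 65.6% of those called, and 49.7% with quantile normalization. Without scramble replicate 2, 997 of 12509 genes passed in place of 2578.

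With the replicate number as a block, although the numbers did not pair the libraries, *TNRC6B* alone still passed in the pooled comparison. With the block and the length trend removed together, 0 of 8 passed in the pooled comparison, 0 with shRNA1 and 1 with shRNA2, 7 list genes rose, and the signs that had turned stayed so (*AGO2* 0.0672, 0.0337 and 0.101, *TNRC6A* 0.0525, *DICER1* 0.0501, *AGO1* 0.0463, *AGO4* 0.0753, *TNRC6B* 0.018). Levels near 1 FPKM rest on few fragments, which limits *AGO3*, *AGO4* and *TNRC6C*.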
